A study of Mus musculus with 30 samples.

Results

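Endothelial-marker cells made up 109 of the 9601 kept barcodes in 2 single-cell RNA libraries of mouse heart cells, 90 in the neonatal library and 19 in the library from mice 24 months old. Members were selected on measured counts. A barcode was kept when it had counts in at least 500 genes and under 20% of its counts in mitochondrial genes, and it became a member when at least 3 of Pecam1, Cdh5, Kdr, Emcn, Tie1, Egfl7 and Esam had a count of 1 or more. The neonatal library came from WT (wild-type) mice at P1-P3, postnatal days 1 to 3, and the other library from WT mice at 24 months. In both, primary cells labelled as cardiac fibroblasts had received MGT, the factors Mef2c, Gata4 and Tbx5 that are used to turn fibroblasts into cardiomyocyte-like cells (iCM). Both were made with the 10x droplet method, in which molecules are counted by unique molecular identifiers (UMI). How many animals were pooled, and on which day after MGT the cells were taken, is not given in the sources used here. Each age has 1 library, so no difference between ages has a replicate check and no test was run. Intervals below are exact 95% intervals that cover counting error only.

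Endothelial cells line blood vessels, and in the heart they form several kinds of lining. Capillary endothelium passes fatty acids from blood to muscle, endocardium lines the chambers, and arterial, venous and lymphatic endothelium each carry their own markers. Tip cells lead new sprouts under control of VEGF and Notch signals. ETS and SoxF transcription factors hold the endothelial programme in all of them.

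The neonatal file held 4816 barcodes, of which 3828 were kept, and the 24-month file held 6796, of which 5773 were kept. Members were 2.35% (1.89 to 2.88) of kept neonatal barcodes and 0.329% (0.198 to 0.513) of kept barcodes at 24 months. The neonatal members carried more molecules than other neonatal barcodes, with a median of 32688.5 UMI against 12082.5. At 24 months the members had a median of 19617 UMI against 20771 in the rest. Summed over members, the depth was 3811373 counts in the neonatal library and 484932 at 24 months. The libraries shared 11 barcode sequences, and 0 of them belonged to a member. Every kept barcode with at least 1500 UMI was also thinned to 1500 UMI, and those below that depth were left out. The rule then kept 27 of 3255 neonatal barcodes (0.829%) and 12 of 4884 at 24 months (0.246%). Both shares were lower than without thinning, the neonatal one by more, and the neonatal share was still the higher. Age, isolation, culture and library cannot be told apart as sources of the difference in share.

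Just outside the rule stood 63 neonatal and 25 older barcodes with 2 of the 7 genes. Just inside stood 16 and 2 barcodes with 3. A panel of 14 endothelial genes outside the rule (Erg, Sox17, Sox18, Sox7, Robo4, Ecscr, Mmrn2, Icam2, Clec14a, Myct1, Cldn5, Ptprb, S1pr1 and Adgrl4), chosen from longer lists after their values were seen, described the step. The median number of panel genes with a count was 2 in neonatal barcodes with 2 rule genes, 3 in those with 3, and 9 in those with all 7. At 24 months the same medians were 2, 3.5 and 13. The summed panel level went from 299 to 645 CPM (counts scaled to one common total per group of barcodes) across the threshold in the neonatal library and from 121 to 638 CPM at 24 months. Barcodes with 0 rule genes still held 351 CPM of the panel in the neonatal library, where Ptprb alone stood at 260 CPM outside the class.

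**Figure D1:**
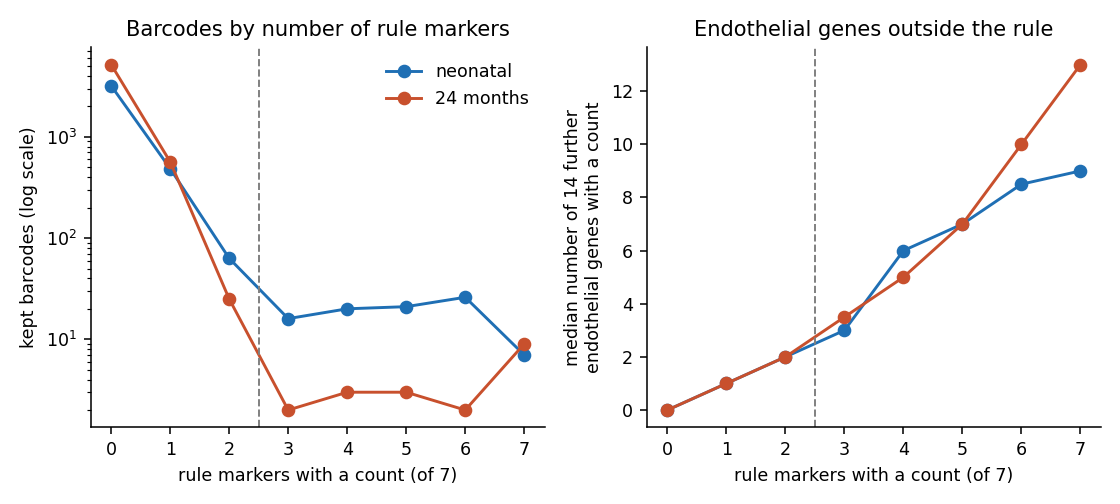
Kept barcodes by the number of the 7 rule genes with a count (x axis), as their number (left, log scale) and as the median number of 14 further endothelial genes with a count (right). The dashed line marks the rule: to its right lie 90 neonatal barcodes (blue) and 19 at 24 months (red), and panel genes per barcode reach medians of 9 and 13 where all 7 rule genes were counted.

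The rule genes themselves, given as a description, were not alike in the 2 libraries. Cdh5, the junctional VE-cadherin, had 290 CPM in the neonatal class and 1208 CPM at 24 months. Pecam1, another junction protein, had 149 and 511 CPM. Kdr, the main VEGF receptor, was counted in 12 of 90 neonatal members at 10.5 CPM and in 12 of 19 older members at 140 CPM. Emcn, a sialomucin of capillary, venous and endocardial lining, went the other way, with 912 CPM in the neonatal class and 724 CPM at 24 months. The neonatal class was thus gathered hardly through Kdr and mainly through other genes of the rule. Kdr was not particular to endothelium in the neonatal library: barcodes with macrophage markers held 42.2 CPM of it, above the class.

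Clustering of all kept barcodes, in which membership was not used, placed 65 of the 90 neonatal members and 16 of the 19 older members in 2 of 14 clusters. These 2 were called the endothelial clusters because most of their barcodes were members (91.4% and 70.8%). The rule genes were not removed before clustering, so the clusters are a description and no independent check of the class. Cluster 7 held 70 barcodes, all neonatal, of which 64 were members. Cluster 12 held 23 barcodes of the 24-month library and 1 neonatal barcode, and 17 of these 24 were members. Different clusters therefore held the class at the 2 ages, and because each cluster is nearly all of 1 library, cluster and library cannot be told apart. The 25 neonatal members elsewhere had a median of 69422 UMI against 25367 in the endothelial clusters, and a median of 4 panel genes against 8. Among these 25, 16 had at least 3 fibroblast markers, 7 had at least 3 epicardial markers, and 8 lay in cluster 5, each with at least 21 of 25 proliferation genes counted. The 3 older members elsewhere all had at least 3 fibroblast markers. No doublet caller was run, and whether these barcodes held more than 1 cell was not tested.

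Markers of other cell types were present in part. At least 3 of 7 fibroblast markers were counted in 22 of 90 neonatal and 6 of 19 older members, against 38.4% and 60.9% of the other barcodes. At least 3 of 7 cardiomyocyte markers were counted in 23 neonatal members (25.6%) and 0 of 19 older ones, against 46.8% and 0.869% of the other barcodes. Macrophage markers reached 3 in 3 and 2 members (3.33% and 10.5%), against 7.12% and 18.3% of the other barcodes. Mural markers (pericytes and smooth muscle) reached 3 in 3 and 1 (3.33% and 5.26%), against 7.87% and 3.02%. Lymphoid, Schwann and red cell markers reached 3 in 0 members at both ages. The summed fibroblast level was 626 CPM in the neonatal class and 565 CPM in the older class, against 903 and 1837 CPM in the other barcodes. In single members this level ran from 0 to 4064 CPM at the neonatal age and from 0 to 1693 CPM at 24 months.

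Against the other kept barcodes, the class carried a broad endothelial set at both ages. Values here are summed CPM, with the 7 rule genes left out, and they describe the class, since the same cells chose its members. Among genes with at least 20 counts and 50 CPM in the higher group, 75 of 3324 (2.26%) were at least 4-fold higher in the neonatal class and 147 of 3487 (4.22%) in the older class. Of the further pan-endothelial surface and junction genes, 7 of 12 counted were at least 4-fold higher in the neonatal class and 12 of 14 in the older class. Cardiac contractile genes had 0 of 11 and 0 of 4 past that fold, and interferon-stimulated genes 0 of 20 and 0 of 14.

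Of the listed endothelial transcription factors, 1 of 9 counted was at least 4-fold higher in the neonatal class and 6 of 13 in the older class, with median ratios of 2.13-fold and 3.20-fold. Sox17, a SoxF factor of arterial and endocardial cells, had 52.0 CPM in the neonatal class against 0.22 CPM outside it, and 86.6 against 0.01 CPM at 24 months. It was counted in 36 of 90 and 9 of 19 members. Erg, an ETS factor, had 34.1 against 0.08 CPM and 59.8 against 0.03 CPM. Barcodes outside the class with at least 3 macrophage markers and under 3 fibroblast markers were called macrophage-marker barcodes (198 and 632 barcodes). They held 0 counts of Sox17 and Erg in both libraries, at medians of 26720.5 and 20846 UMI. Both genes were so rare outside the class that hardly any counts could fall there, so these 0 counts do not measure free RNA.

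Receptors and surface proteins were among the 25 genes that led in both libraries. Adgrf5, an adhesion receptor of endothelium, had 90.8 against 0.71 CPM in the neonatal library and 169 against 0.34 CPM at 24 months. Icam2, a constitutive adhesion molecule, had 65.6 against 1.28 CPM and 421 against 0.67 CPM. S1pr1, the receptor for sphingosine 1-phosphate that keeps junctions tight, had 111 against 2.39 CPM and 124 against 6.88 CPM. It was also present in macrophage-marker barcodes, at 27.3 and 50.6 CPM. Ramp2, the partner of the adrenomedullin receptor, was 15.4-fold and 29.9-fold higher in the class. Procr, the endothelial protein C receptor, was 18.1-fold and 9.47-fold higher. Plxnd1, Cd93, Mcam and F11r followed at 4.70-fold or more.

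Notch pathway members were in the same set: Notch1 stood at 72.7 CPM in the neonatal and 59.8 CPM in the older class, the ligand Jag1 at 68.5 and 53.6 CPM, and the arterial ephrin Efnb2 at 81.9 and 92.8 CPM. Their ratios to the other barcodes ran from 3.37-fold to 13.0-fold. Ctla2a, a protease inhibitor related to cathepsin propeptides, was abundant in both, at 6790 and 7366 CPM against 257 and 130 CPM. At 24 months 52.6% of its counts came from 1 barcode, as did 65.1% of those of Plvap. In the neonatal class the largest share of 1 barcode among the 25 genes was 48.8%, for Pgf. Myct1, an endothelial target of ETS factors, stood at 198 and 210 CPM, and Ecscr, a regulator of endothelial movement, at 290 and 557 CPM in 85 and 17 members. Tm4sf1, a membrane protein of endothelium that other cells also carry, had 2916 and 848 CPM against 481 and 187 CPM.

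**Figure D2:**
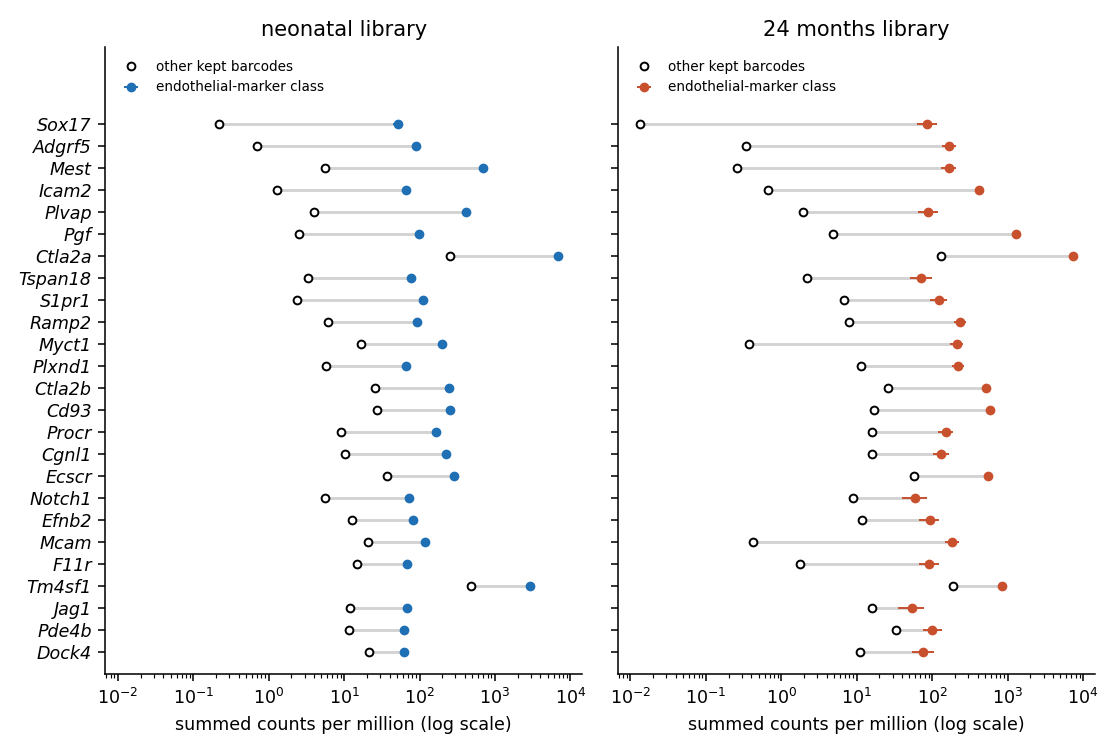
Summed CPM (log scale) of the 25 genes with the largest smaller-library ratio, in the endothelial-marker class (filled, with exact 95% Poisson intervals) and in the other kept barcodes (open), for the neonatal library (left) and 24 months (right). Every filled point lies to the right of its open point, from Sox17 at the top, with 52.0 against 0.22 CPM in the neonatal library, to Dock4, with 63.2 against 21.1 CPM.

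The stretch before the start site is shown for 4 genes that the comparisons turn on: Adgrf5, which led at both ages, Cldn5 and Apln, which were higher in the older class, and Aqp1, which was higher in the neonatal class. Each is the last 150 bases before the start in RefSeq (build GRCm38.p6), read 5′ to 3′ on the strand of the gene. Capitals mark AGGAAG or CGGAAG, letters found in binding sites of ETS factors, on either strand. The windows are chr17:43360281-43360430 (plus strand), chr16:18776697-18776846 (plus), chrX:48034854-48035003 (minus) and chr6:55336149-55336298 (plus), in that order.
Adgrf5: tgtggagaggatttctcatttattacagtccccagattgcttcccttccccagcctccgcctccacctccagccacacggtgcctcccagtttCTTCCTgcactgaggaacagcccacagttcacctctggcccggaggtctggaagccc
Cldn5: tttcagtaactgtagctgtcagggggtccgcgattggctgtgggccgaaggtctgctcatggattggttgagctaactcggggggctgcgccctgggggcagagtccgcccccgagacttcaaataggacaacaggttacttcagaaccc
Apln: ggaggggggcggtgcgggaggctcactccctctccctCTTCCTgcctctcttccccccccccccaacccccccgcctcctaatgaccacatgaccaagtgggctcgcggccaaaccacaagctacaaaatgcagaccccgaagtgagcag
Aqp1: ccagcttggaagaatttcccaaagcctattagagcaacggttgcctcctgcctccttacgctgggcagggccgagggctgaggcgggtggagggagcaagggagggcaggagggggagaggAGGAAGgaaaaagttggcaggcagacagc

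A match lay 57 bases before the start shown for Adgrf5, 113 before that of Apln and 29 before that of Aqp1. Adgrf5 had 2 starts with an entry, and only the window of the start with the lower coordinate is shown. The Cldn5 window held 0 matches. Of the 25 leading genes, 17 had an entry, with 25 starts in all, and 8 of these starts (32.0%) held a match. Of all 32851 starts with an entry, 28.0% did, so the share among the leading genes was near that of all genes. A match is a description of letters, not of a site in use.

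Between the ages, 3569 genes of the class had at least 20 counts in 1 library and 50 CPM in the higher. Of these, 124 (3.47%) were at least 4-fold higher at 24 months and 135 (3.78%) at least 4-fold higher in the neonatal class. At 2-fold the shares were 8.94% and 9.55%, and the median log2 ratio over all counted genes was -0.01. Lists are read below against those shares, with the median log2 ratio of the same members in the other kept barcodes beside them. Because a neonatal member outside the 2 endothelial clusters often carried markers of another type, values for members inside the clusters are given where they matter. Some members inside the clusters carried such markers too. At least 3 fibroblast markers were counted in 6 of these 65 neonatal and 3 of these 16 older members. At least 3 cardiomyocyte markers were counted in 12 and 0 of them.

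Most counted genes of the cardiac capillary list were higher at 24 months. Of the 20 listed, 10 were too low to be counted, among them Cd36, Car4, Aqp7, Meox2, Tcf15 and Btnl9, and 6 had 0 counts in the neonatal class and 4 in the older class. Of the 10 counted, 8 were at least 2-fold higher and 1 (Aqp1) at least 2-fold lower, against backgrounds of 8.94% and 9.55%. Their median log2 ratio was 2.37, against 0.85 in the other barcodes. Within the endothelial clusters the counts were the same, 8 and 1 of 10, with a median of 3.02. Summed over the 20 listed genes, single members ran from 33.6 to 5318 CPM with a median of 916 in the neonatal class, and from 576 to 18146 CPM with a median of 4328 at 24 months. The ranges overlapped, and 2 neonatal members lay above the older median. After thinning, a count of any listed gene was found in 59 of 90 neonatal members (65.6%, 54.8 to 75.3) and 18 of 19 older members (94.7%, 74.0 to 99.9).

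Fabp4, the fatty acid binding protein of capillary endothelium, had 239 counts in 15 of 90 neonatal members (62.7 CPM) and 1005 counts in 18 of 19 older members (2072 CPM). The ratio was 33.1-fold (28.7 to 38.2), and 2.04-fold in the other barcodes. Macrophage-marker barcodes also held Fabp4, at 934 CPM in the neonatal library and 408 CPM at 24 months. Gpihbp1, which anchors lipoprotein lipase on the capillary wall, had 27.8 CPM in the neonatal class and 431 CPM in the older class, in 1 and 17 members. Cldn5, the main claudin of endothelial tight junctions, had 34.9 and 575 CPM, in 1 and 15 members.

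The 133 neonatal counts of Cldn5 and the 106 of Gpihbp1 all lay in the same barcode, the single neonatal member of cluster 12. That barcode also held 98 of the 239 Fabp4 counts and had the highest capillary level of any neonatal member, 5318 CPM. Cldn5 and Gpihbp1 had a count in no other neonatal member. Its endocardial level was 138 CPM, and Plvap and Bmp6 were at 0 in it.

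Other capillary genes followed. Ly6c1, a surface antigen, had 6.30 and 283 CPM, with 22 of its 24 neonatal counts in 1 barcode. Kitl, the ligand of Kit, had 15.5 and 231 CPM. Ly6a had 112 and 833 CPM, a ratio of 7.47-fold, but 6.21-fold in the other barcodes too. Lpl was 2.08-fold higher, and in both libraries its level was lower in the class than in the other barcodes. Aqp1, the endothelial water channel, went the other way, from 362 CPM in 62 neonatal members to 10.3 CPM in 3 older members, 35.1-fold lower (15.02 to 108).

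Endocardial genes were higher in the neonatal class. Of 4 listed genes counted, 0 were at least 2-fold higher at 24 months and 3 at least 2-fold lower, with a median log2 ratio of -1.83 against -0.20 in the other barcodes. Within the endothelial clusters all 4 (Plvap, Tmem108, Bmp6 and Cgnl1) were at least 2-fold lower at 24 months, with a median of -3.26. Summed over the 12 listed genes, neonatal members ran from 15.8 to 4686 CPM with a median of 1190, and older members from 0 to 854 CPM with a median of 170. At least 3 listed genes were counted in 79 of 90 neonatal members (87.8%, 79.2 to 93.7) and in 4 of 19 older members (21.1%, 6.05 to 45.6). After thinning to 1500 UMI, a count of any listed gene was found in 66 of 90 (73.3%, 63.0 to 82.1) and 3 of 19 (15.8%, 3.38 to 39.6).

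Plvap, which forms the diaphragms of fenestrated and endocardial lining, had 1592 counts in 76 neonatal members (418 CPM) and 43 counts in 6 older members (88.7 CPM). It was 4.71-fold higher in the neonatal class (3.48 to 6.53), and 65.1% of its counts at 24 months lay in 1 barcode. Bmp6, a bone morphogenetic protein ligand, had 114 CPM in 80 neonatal members and 8.25 CPM at 24 months, where all 4 counts lay in 1 barcode. In the other barcodes Bmp6 was higher at 24 months, 15.5 against 7.29 CPM. Npr3 and Nfatc1, which also mark endocardium, were too low to be counted, at 9.97 and 8.13 CPM in the neonatal class and 14.4 CPM each in the older class. The older Npr3 counts lay only in the 2 members of cluster 10 (5 and 2 counts), outside the endothelial clusters and each with 6 fibroblast markers. Cytl1, another endocardial marker, had 0 counts in members of both libraries. The endocardial pattern thus rested on Plvap, Bmp6, Cgnl1 and Tmem108.

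**Figure D3:**
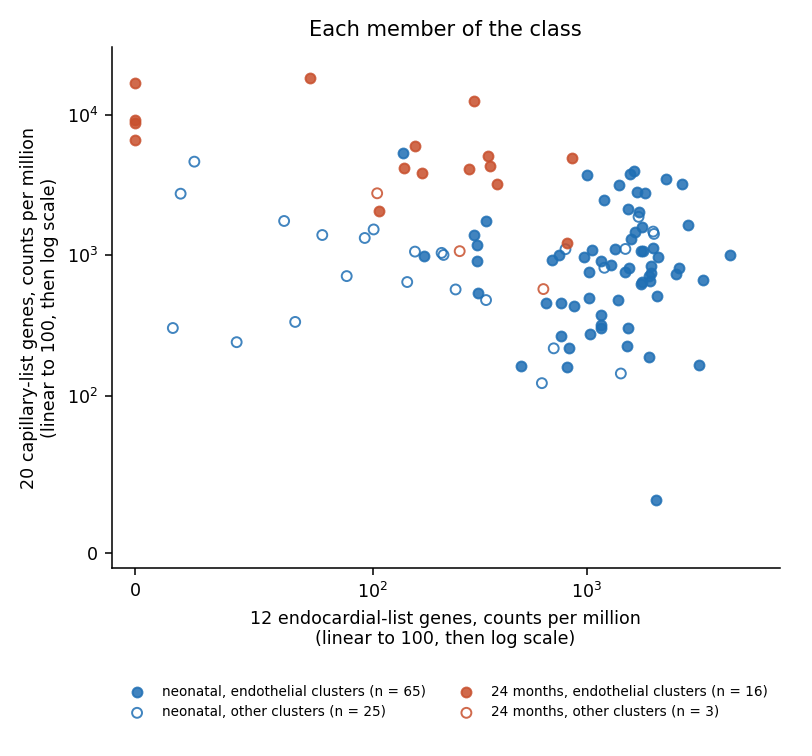
Each of the 109 members by its summed level of 12 endocardial-list genes (x axis) and 20 capillary-list genes (y axis), in CPM, linear to 100 and on a log scale above, for neonatal (blue) and 24-month (red) members inside (filled) or outside (open) the endothelial clusters. Filled blue points lie mostly at the right, with a median of 1546 CPM on the x axis. Filled red points lie at the upper left, with a median of 4976 CPM on the y axis and 1 filled blue point among them.

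Tip cell and angiogenic genes divided. Of 18 counted, 8 were at least 2-fold higher at 24 months and 2 (Flt1 and Plvap) at least 2-fold lower, with a median log2 ratio of 0.68 against -0.12 in the other barcodes. Apln, the apelin ligand made by tip cells, had 70 counts in 15 neonatal members (18.4 CPM) and 426 counts in 17 older members (878 CPM), 47.8-fold higher (37.1 to 62.5). Of the 70 neonatal counts, 27 lay in the neonatal barcode of cluster 12. Pgf, a ligand of the VEGF receptor Flt1, had 97.9 CPM in 31 neonatal members and 1303 CPM in 17 older members, 13.3-fold higher (11.7 to 15.2) against 1.94-fold in the other barcodes. Angpt2, the antagonist ligand of Tie2 released by sprouting endothelium, had 24.4 and 382 CPM. Esm1, a classical tip marker, had 6 counts in the neonatal class and 34 counts in 5 members at 24 months.

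Receptors of the same pathways differed among themselves. Kdr, whose level the rule itself used, was described above. Flt1, the decoy VEGF receptor, had 133 CPM in 84 neonatal members and 8.25 CPM in 4 older members. Flt1 was lower at 24 months by a like ratio in the other barcodes, 13.0-fold against 16.2-fold in the class. The co-receptor Nrp1 stood at 115 and 130 CPM. Tek, the angiopoietin receptor, was at 13.6 and 26.8 CPM and too low to be counted. Eng, a co-receptor for BMP9 and TGF-beta, had 567 CPM in all 90 neonatal members and 184 CPM in 16 older members, 3.09-fold lower at 24 months (2.498 to 3.86), while in the other barcodes it was 1.27-fold higher.

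The BMP branch had members on both sides. Of the 26 listed VEGF, angiopoietin and BMP genes 20 were counted, with 6 at least 2-fold higher at 24 months and 6 lower. Bmp4 had 261 and 70.1 CPM, and the inhibitory factors Smad6 and Smad7 had 124 and 39.2 CPM and 314 and 109 CPM. The target genes Id1 and Id3 differed by less, at 269 and 278 CPM and 629 and 503 CPM. Acvrl1, the type I receptor that pairs with Eng, was higher at 24 months, 38.3 against 115 CPM, and Tgfbr2 likewise, 87.9 against 225 CPM.

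Arterial and venous genes gave no single direction. Of 11 Notch and arterial genes counted, 3 were at least 2-fold higher at 24 months (Cxcr4, Dll4 and Notch4) and 2 lower (Gja4 and Fbln5), with a median log2 ratio of -0.28. Dll4, the Notch ligand of tip and arterial cells, had 8 counts in 3 neonatal members and 27 counts in 8 older members. Gja4, the gap junction protein connexin 37, had 92.4 CPM in 47 neonatal members and 6.19 CPM in 2 older members. The arterial factors Hey1 and Hey2 had at most 2 counts in either class. Among 6 venous genes counted, 2 were at least 2-fold higher at 24 months (Nrp2 and Mgp) and 2 lower (Selp and Cpe). Mgp, a matrix protein, had 1102 and 2860 CPM, with 79.5% of the older counts in 1 barcode. Nr2f2, the venous fate factor, stood at 76.6 and 57.7 CPM, and Selp, the stored adhesion molecule P-selectin, at 80.6 CPM in 57 neonatal members and 4.12 CPM in 1 older member.

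Lymphatic markers were low. Prox1, the master factor of lymphatic fate, was counted in 29 of 90 neonatal members (32.2%, 22.8 to 42.9) at 13.4 CPM and in 1 of 19 older members (5.26%, 0.133 to 26.03). Lyve1 had 3 counts and 1 count, and Ccl21a and Mmrn1 had 0 in both classes.

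Vasoactive and junction genes were split between the ages. Edn1, the vasoconstrictor endothelin, had 325 CPM in 78 neonatal members and 57.7 CPM in 8 older members, 5.63-fold lower at 24 months (3.88 to 8.51), and near-equal levels of 28.7 and 28.6 CPM in the other barcodes. Nos3, the endothelial nitric oxide synthase, went the other way, from 12.1 CPM in 17 neonatal members to 94.9 CPM in 13 older members, 7.86-fold higher (5.11 to 12.1). Vwf, the von Willebrand factor stored by mature endothelium, was nearly absent, with 7 counts in the neonatal class and 1 in the older class. Icam1 and Vcam1, adhesion molecules of inflamed endothelium, were lower in the older class, at 123 against 35.1 CPM and 540 against 287 CPM. Both were higher in the other barcodes at 24 months, Icam1 by 4.45-fold.

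**Figure D4:**
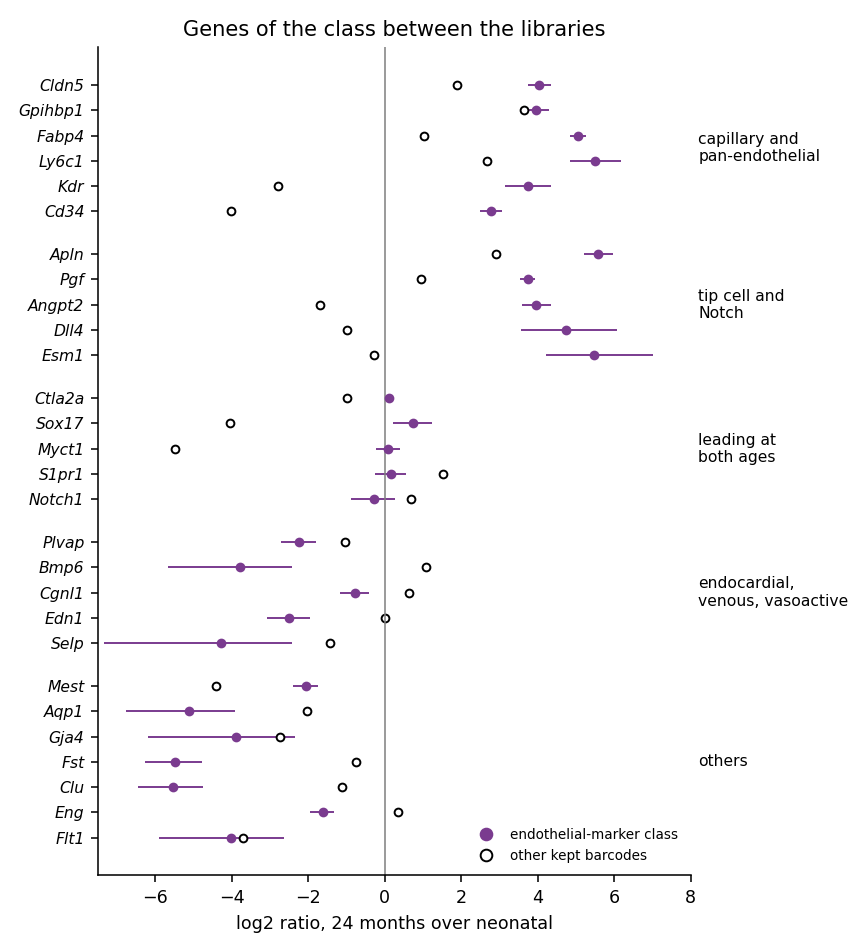
The log2 ratio of 24 months over neonatal for selected genes, chosen after their values were seen (Kdr is a rule gene), in the endothelial-marker class (filled, with exact 95% intervals for counting error) and in the other kept barcodes (open, a group at 0 counts set to 3 counts). Capillary and tip cell genes lie to the right of 0 in the class, up to 5.58 for Apln, leading genes such as Ctla2a and Myct1 lie near 0, and Bmp6 lies at -3.79 in the class and to the right of 0 in the other barcodes.

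Of 14 endothelial transcription factors counted between the ages, 5 were at least 2-fold higher at 24 months (Sox18, Bcl6b, Lmo2, Ets2 and Epas1) and 1 (Foxc2) at least 2-fold lower, with a median log2 ratio of 0.77 against 0.02. Inside the endothelial clusters 5 of 15 were at least 2-fold higher and 3 (Klf2, Klf4 and Foxc2) lower, with a median of 0.50. Sox18, a SoxF factor, had 27 counts in 10 neonatal members and 75 counts in 14 older members, 21.8-fold higher in CPM (13.9 to 35.3). Erg and Sox17 were 1.75-fold (1.13 to 2.64) and 1.67-fold (1.17 to 2.34) higher. Gata2, a haemato-endothelial factor, had 99 counts in 48 neonatal members and 1 count at 24 months. Klf2, the flow-responsive factor, had 311 and 169 CPM.

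The pan-endothelial surface list had 8 genes at least 2-fold higher at 24 months and 3 (Eng, Flt1 and Ptprb) lower, of 16 counted. Its median log2 ratio was 1.06, against -0.98 in the other barcodes. Cd34, a sialomucin of capillary endothelium and progenitors, had 56.4 and 390 CPM, and Icam2 65.6 and 421 CPM. Robo4, an endothelial guidance receptor, had 21 counts in 11 neonatal members and 48 counts in 10 older members. In the other barcodes Cd34 and Icam2 were lower at 24 months, by 16.1-fold for Cd34.

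Imprinted and fetal growth genes were higher in the neonatal class. Of 9 counted, 4 (Mest, H19, Plagl1 and Meg3) were at least 2-fold lower at 24 months and 1 (Peg10) higher, with a median log2 ratio of -0.81 against -1.97 in the other barcodes. Mest, an imprinted gene of fetal mesoderm, had 701 CPM in 73 neonatal members against 5.51 CPM outside the class, and 167 CPM in 11 older members against 0.26 CPM outside it. Its ratio between the ages was 4.20-fold (3.37 to 5.30). Plagl1, an imprinted growth regulator, had 427 counts in 66 neonatal members and 2 counts at 24 months. H19 had 423 counts in 10 neonatal members, 60.0% of them in 1 barcode, and 0 at 24 months, where the limit of 3 counts is 6.19 CPM, so it was at least 17.9-fold lower.

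Some genes were lower at 24 months in the class and not, or far less, in the other barcodes. Fst, the activin antagonist follistatin, had 5601 counts in 65 neonatal members (1470 CPM) and 16 counts in 4 older members (33.0 CPM), 44.5-fold lower (27.4 to 78.0) against 1.70-fold in the rest. Clu, the chaperone clusterin, had 1243 and 26.8 CPM, 46.4-fold lower (27.1 to 87.2) against 2.17-fold. Calcrl, the receptor that pairs with Ramp2, had 115 CPM in 65 neonatal members and 10.3 CPM in 4 older members, while in the other barcodes it had 4.61 and 18.4 CPM. Ramp2 itself was 2.49-fold higher in the older class. Alcam, an adhesion molecule, and Slco2a1, the prostaglandin transporter, had 1 and 2 counts at 24 months and 538 and 363 in the neonatal class. With at least 2 of the 7 rule genes in place of 3, the log2 ratio of Alcam went from -6.10 to -0.58. Serpina3g, a protease inhibitor, had 242 CPM in 55 neonatal members against 3.64 CPM outside the class, and 2 counts at 24 months. No test of the difference between the class and the rest was possible with 1 library an age.

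The largest ratios upward were partly those of the other barcodes. Mmp3, a matrix metalloproteinase, had 5.51 CPM in the neonatal class and 1122 CPM in 10 older members, and 35.7 and 2441 CPM in the other barcodes. Ccl8, C3, Hp, Serpinf1, Ndufa4l2 and Dpep1 were likewise higher at 24 months in both populations, and at both ages their level was below that of the other barcodes. The summed fibroblast markers beside them were 626 and 565 CPM in the class and 903 and 1837 CPM in the rest, and without members that carried at least 3 macrophage, fibroblast, mural, epicardial or lymphoid markers (25 neonatal and 6 older) the log2 ratios were smaller. Hp went from 7.03 to 1.34, Ndufa4l2 from 6.94 to 2.34, and Dpep1 from 4.95 to 2.34. Serpinf1 went from 5.91 to 2.92, C3 from 7.00 to 4.92 and Mmp3 from 7.67 to 5.15, and Ccl8 had 0 counts left at both ages. A library at 0 was held at 3 counts here too, so several of these smaller ratios can rest on that floor and on a few counts. Whether the mixed barcodes were the source of the larger ratios was not tested. Kcne3, a potassium channel subunit, differed: it had 2 counts in 1 neonatal member and 45 counts in 10 older members (92.8 CPM), against 0.19 CPM in the other barcodes at 24 months. Meox1, a homeobox factor, had 0 and 27 counts, at least 70.7-fold higher, in 10 older members. Nts, the peptide neurotensin, had 61 counts in 5 older members and 0 in the neonatal class, but 77.0% of them lay in 1 barcode. AA467197 had 44.1 CPM in 24 neonatal and 1425 CPM in 17 older members, with 66.7% of the neonatal counts in 1 barcode and a ratio of 5.32-fold in the other barcodes. Afap1l1, an actin adaptor, had 34.9 CPM in 57 neonatal and 124 CPM in 12 older members, and in the other barcodes 3.69 and 0.07 CPM. Dapk2, a calmodulin-dependent kinase, had 11.3 CPM in 15 neonatal and 130 CPM in 16 older members, and Ephb1, an ephrin receptor, 3.41 CPM in 3 and 59.8 CPM in 9.

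Cell cycle genes were higher in the neonatal class, and there mostly outside the endothelial clusters. Of 9 counted, 0 were at least 2-fold higher at 24 months and 8 at least 2-fold lower, with a median log2 ratio of -3.73 against -0.22 in the other barcodes. Top2a, the topoisomerase of dividing cells, was counted in 14 of 90 neonatal members (15.6%, 8.77 to 24.7) at 83.7 CPM. At 24 months it had 0 counts in 19 members, which by the limit of 3 counts allows up to 15.8% of members with a UMI (17.6% by the exact interval) and a level of up to 6.19 CPM. A member without a UMI may still express the gene. Of the 14 neonatal members, 4 lay in the endothelial clusters, where the level was 2.54 CPM. The summed list was 238 CPM in neonatal members inside those clusters, 2324 CPM in the 25 outside them, and 173 CPM in the older class. Inside the clusters 2 listed genes were counted, and the median log2 ratio was -0.09. Mki67, another cycling marker, was counted in 11 neonatal members at 34.1 CPM (1.02 CPM inside the clusters) and in 0 of 19 older ones. Cdkn1a and Cdkn2a, inhibitors of the cycle, were at 676 and 497 CPM and at 56.7 and 37.1 CPM. Inside the clusters Cdkn1a had the other direction, with a log2 ratio of 0.53 against -0.44 in the whole class.

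Interferon-stimulated genes were lower in the older class, with a like median elsewhere. Of 19 counted, 15 were at least 2-fold lower at 24 months and 1 (Rsad2) higher. The median log2 ratio was -1.59 in the class and -1.56 in the other barcodes. Ifit1 had 541 and 70.1 CPM and Bst2, a surface restriction factor, 2654 and 975 CPM. Iigp1, an interferon-inducible GTPase, had 791 counts in 81 neonatal members and 2 counts at 24 months, while the other barcodes differed by 2.12-fold.

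Contractile genes were lower in the older class, and mesenchymal and matrix genes went both ways. The 9 cardiac contractile genes counted in the whole class were at least 2-fold lower at 24 months, with a median log2 ratio of -5.04 against -5.84 in the other barcodes. Inside the endothelial clusters 3 were counted, of which 2 (Tnnt2 and Tpm1) were at least 2-fold lower, with a median of -1.50. The summed list was 2478 CPM in neonatal members inside the clusters and 11889 CPM in the 25 outside them. Tnnt2, cardiac troponin T, had 1657 CPM in 81 of 90 neonatal members and 4.12 CPM in 2 of 19 older members. In the other neonatal barcodes it had 4198 CPM, and in neonatal macrophage-marker barcodes 1331 CPM. The 3 neonatal members of cluster 1 held 692, 761 and 959 of the Tnnt2 counts of the class. Where the Tnnt2 counts of the class came from was not tested. Myl7, an atrial light chain, had 54.6% of its neonatal counts in 1 member. Of 13 mesenchymal transition genes, 7 were at least 2-fold lower and 1 (Vim) higher. Tagln had 1913 and 219 CPM and Acta2 1107 and 88.7 CPM, below the 2889 and 2516 CPM of the other neonatal barcodes. Of 8 fibrillar collagen and matrix genes, 1 (Col3a1) was at least 2-fold higher at 24 months and 1 (Postn) lower in the whole class, with a median of 0.04. Inside the endothelial clusters 5 of 8 (Col1a1, Col1a2, Col3a1, Sparc and Postn) were at least 2-fold higher and 1 (Dcn) lower, with a median of 1.27. The mural markers Pdgfrb and Notch3 were higher inside the clusters too, but in the whole class Notch3 was too low to be counted. Of the 16 older members in the clusters, 3 had at least 3 fibroblast markers. Only 1 older member had at least 3 mural markers, and it lay in cluster 12 and held 6 fibroblast markers. How far such members set the matrix and mural ratios was not tested. Basement membrane genes had 4 of 12 at least 2-fold higher (Col18a1, Col15a1, Lama4 and Sparcl1) and 0 lower. Of the neonatal Sparcl1 counts 94.7% lay in 1 barcode, and of the older Col15a1 counts 79.3%.

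The MGT genes were counted in most members. At least 1 of Mef2c, Gata4 and Tbx5 was counted in 84 of 90 neonatal members (93.3%, 86.1 to 97.5) and 15 of 19 older members (78.9%, 54.4 to 93.9), against 62.3% and 56.2% of the other barcodes. All 3 were counted in 14 neonatal members (15.6%, 8.77 to 24.7) and 0 of 19 older members, which by the limit of 3 counts allows up to 15.8% of members with UMIs of all 3 (17.6% by the exact interval). The depth of neonatal members was higher, and macrophage-marker barcodes with any of the 3 were 62.1% and 48.9%. Mef2c had 145 and 103 CPM, Gata4 79.0 and 30.9 CPM, and Tbx5 13.1 CPM and 0 counts. The 2 older members of cluster 10, each with 6 fibroblast markers, held 3 and 8 of the older Gata4 counts. The log2 age ratio of Gata4 was -1.35 in the whole class. It was -2.96 for members in the endothelial clusters only and -4.58 without mixed barcodes, on few older counts. The counts of the 3 factors do not separate the endogenous gene from the delivered one. Nr4a1, Nr4a2 and Nr4a3, nuclear receptors studied in this series, had 79, 32 and 5 counts in the neonatal class (20.7, 8.40 and 1.31 CPM) and 8, 0 and 1 counts at 24 months (16.5, 0 and 2.06 CPM), too few to give a direction.

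**Figure D5:**
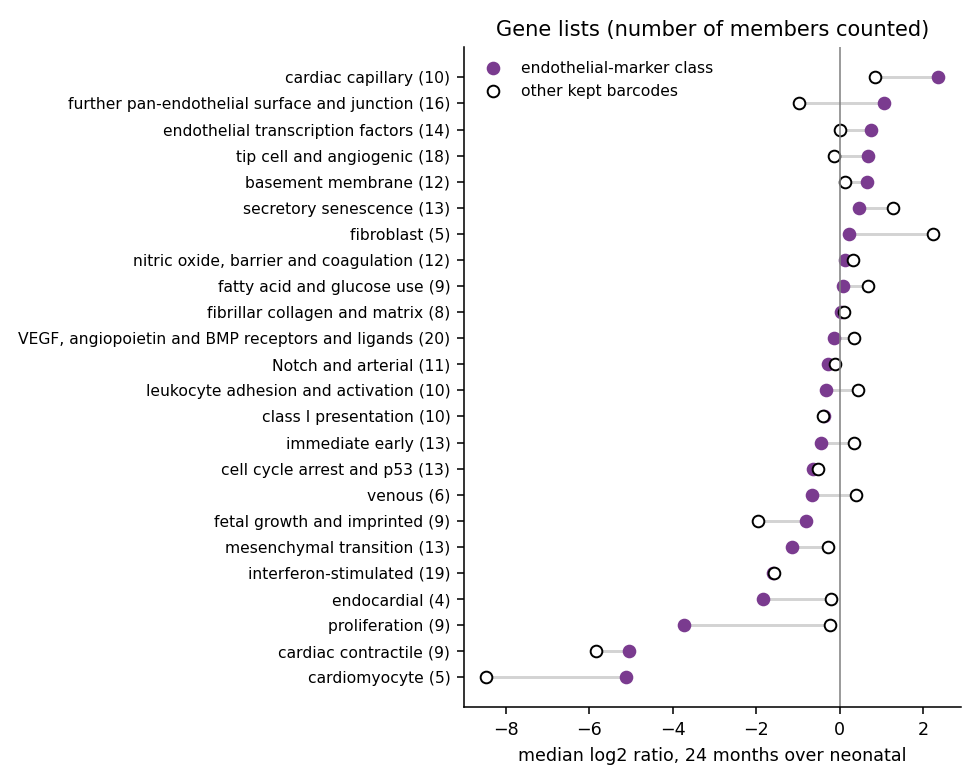
Median log2 ratio of 24 months over neonatal for the gene lists with at least 4 members counted, in the endothelial-marker class (filled) and over the same genes in the other kept barcodes (open), with a library at 0 counts held at 3 counts. Cardiac capillary genes lie highest in the class at 2.37, proliferation genes at -3.73 against -0.22 in the other barcodes, and interferon-stimulated genes at -1.59 and -1.56.

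Sex-linked genes differed between the libraries. Xist, transcribed from the inactive X of females, had 413 counts in 34 neonatal members and 0 at 24 months, and 171 against 0.03 CPM in the other barcodes. Ddx3y, on the Y chromosome, was counted at both ages, at 63.8 and 68.0 CPM. Age and the sex of the animals therefore cannot be told apart.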

How the data were processed

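Single-cell RNA was measured in 2 droplet libraries (10x) of MGT-treated WT heart cells, 1 per age. The other 28 libraries of the series are bulk RNA and were not used here. The deposited single-cell tables hold whole-number UMI counts of 32285 genes per barcode, per the file headers and values. The submitters' processing notes name mm10, Trimmomatic 0.36, SAMtools, Subread 1.5.1 and featureCounts, without a role. The single-cell aligner is not given in the sources used here. Each table was matched to its sample by the age in its name.

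Counts were read and summed with Python 3.11.15, numpy 2.4.6, scipy 1.17.1 and pandas 2.3.3. CPM values are summed counts of a group over the group's total. The library totals were 124135294 and 152791078 counts. A gene was counted when the higher group had at least 50 CPM and 1 group at least 20 counts. A group at 0 was held at 3 counts, which is 0.787 CPM in the neonatal class and 6.19 CPM at 24 months. Shares have exact Clopper-Pearson intervals, and ratios exact binomial intervals. With 1 library per age no test across samples exists. For clustering (scanpy 1.11.5, igraph 0.11.9), counts were scaled to 10000 per cell, and 2000 variable genes, 50 components, 15 neighbours and a resolution of 0.5 were used. Doublets were not removed. The calculations were tested on simulated data.

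The members and the 36 gene lists were chosen with earlier results of these data known, and the panel of 14 genes was trimmed after its values were seen. Named genes were the 7 rule genes, the 25 with the largest smaller-library ratio to the other barcodes, the 15 largest age ratios in each direction, the 10 in each direction that differed most from the other barcodes, up to 6 of the highest members of each list, members at 0 that define a cell type, the 3 factors, the Nr4a genes, Cdkn1a, Cdkn2a and Mki67. Predicted genes were left out. Genes named beside these were chosen after their values were seen. Alternatives changed the marker threshold, the filters on barcodes and genes, the treatment of mixed barcodes, the depth, the scaling and the definition of the class.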

Additional observations from a re-analysis of the deposited data

How the results depend on the processing

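No paired analysis was possible because each age has 1 library. The share of members was 2.35% of kept neonatal barcodes. It was 3.997% with at least 2 markers, 3.24% among barcodes with at least 1000 genes, 0.829% when the rule was applied after thinning, 1.85% with the endothelial clusters as the class, and 1.71% both without mixed barcodes (members with at least 3 macrophage, fibroblast, mural, epicardial or lymphoid markers, left out) and for members in the endothelial clusters only. At 24 months it went from 0.329% to 0.762% with at least 2 markers. Genes at least 4-fold higher in the neonatal class than in the other barcodes numbered 75. They were 30 with at least 2 markers, 117 without mixed barcodes, 150 after thinning, 115 with the mean of CPM per barcode and 6111 with no filter on low counts. At 24 months the 147 genes became 35, 252 and 235 under the first 3 of these and 9506 with no filter. Between the ages, the 124 genes at least 4-fold higher at 24 months became 73 with at least 50 counts and 3244 with no filter. The 135 genes at least 4-fold lower became 317 without mixed barcodes and 403 with no filter.

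Over 39 named genes and 13 settings, the log2 age ratio stayed within its counting interval in 357 cases, moved beyond it in 143, and changed sign in 6 for counted genes at least 4-fold apart. The 357 are no measure of stability. Neither the filters on gene counts nor that of at least 1000 genes changed the members, so all 39 ratios were fixed under each. With the rule applied after thinning, 10 ratios stayed within the interval, 26 moved beyond it and 3 changed sign. These 143 and 357 hold 17 further changes of sign, of Cdkn1a, Cdkn2a, Mef2c, Mki67, Nr4a2 and Nr4a3, which were under 4-fold or too low to be counted. Mki67, at -2.46, became 1.75 with at least 2 markers, 3.16 with the clusters as the class and 3.07 for members in the clusters only. Nr4a2, at -0.44, became 2.95 after thinning, and Cdkn1a, at -0.44, became 0.95. Actc1, at -5.13, became 1.19 without mixed barcodes, 0.63 after thinning, 0.25 with the clusters as the class and 0.17 for members in the clusters only. Ccl5 and Cxcl10, at -5.32 and -5.23, both became 1.37 after thinning. For Actc1, Ccl5 and Cxcl10 a library at 0 was held at 3 counts, which by construction sets the direction. The older class had no counts of Mki67 or Nr4a2, so that floor also entered Mki67 for members in the clusters only and Nr4a2 after thinning. The floor was not shown to set the sign of Cdkn1a, or that of Mki67 with at least 2 markers. The settings that left out each gene's top barcode or kept the members in the clusters only were added after seeing the data. The 19 older members hold 484932 counts, so 0 counts there allow a level of up to 6.19 CPM.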
